A study of Mus musculus with 8 samples.

Results

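The cholesterol synthesis enzymes Hmgcs1, Mvd, Idi1, Fdps, Fdft1, Sqle, Cyp51 and Dhcr7, 8 genes in all, were read on all 8 arrays of a study of RNA bound to CPEB1 and CPEB4 in mouse striatum. They were taken by name as enzymes of 1 pathway: every probe set that the platform annotation gives to 1 of these symbols alone was used. That gave 12 probe sets of the 45101 on the array, for 8 of the 17097 genes with a symbol. CPEB1 and CPEB4 are cytoplasmic polyadenylation element binding proteins, which bind the 3′ untranslated region of mRNAs and control the length of the poly(A) tail and translation. In RNA immunoprecipitation (RIP), an antibody pulls down a protein together with the RNA crosslinked to it.

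Striatum came from male mice of 7 to 8 months, WT or HD, and was pooled within each genotype; the design text names 4 mice. Each pool was crosslinked with formaldehyde, lysed and split into an input aliquot and precipitates with anti-CPEB1, with anti-CPEB4 and with rabbit IgG, the control for RNA that sticks without a specific antibody. There was 1 array for each fraction of each pool, so the WT pool and the HD pool are the only replicates of a fraction. The labels name no strain and do not explain the abbreviation HD. RNA was amplified over 27 cycles before hybridisation. Values are log2 RMA summaries as deposited, so a difference of 1 is 2-fold, and a value of one probe set cannot be set against that of another.

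Striatal identity was read from 9 medium spiny neuron markers: on the input arrays Ppp1r1b was at 11.07 in WT and 10.30 in HD, and Pde10a at 12.20 and 11.34, while Drd1 was at 4.53 and 4.47 and Tac1 at 3.22 and 3.92. The median probe set of an array was at 4.03 to 4.28. One array stood apart in 1 marker of choroid plexus: Ttr was at 6.60 in the WT input and between 9.02 and 11.13 on the other 7. The other markers of choroid plexus and ependyma did not share this. Ccdc153, at 6.26, and Foxj1, at 5.18, were highest in the WT input. Folr1, at 4.25, and Kl, at 4.73, were not at their lowest there.

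Cells build cholesterol from acetyl-CoA. The first steps, with Hmgcs1, lead to mevalonate; Mvd, Idi1 and Fdps carry it through the isoprenoids to farnesyl diphosphate; Fdft1 and Sqle commit it to sterols; and Cyp51 and Dhcr7 belong to the steps after lanosterol. In brain nearly all cholesterol is made locally, since lipoproteins do not cross the blood-brain barrier, and it is needed for myelin and synapses. The genes are known as shared targets of SREBP2, the protein of Srebf2, which acts at sterol regulatory elements together with NF-Y at CCAAT boxes.

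Start regions are shown because Srebf2 and the NF-Y subunits are among the pathway genes measured below. RefSeq windows from 250 bases before to 50 bases after a start (assembly GRCm38.p6) matched 5 of the 8 genes, in 7 windows; Fdps, Fdft1 and Sqle had none. Both strands were searched for TCACNCCAC, a sterol regulatory element-like word, and for CCAAT. The 2 words do not overlap each other. Each stretch of 30 bases is written 5′ to 3′ on the gene's strand, with the matched letters in capitals; ATTGG is CCAAT on the opposite strand.
Hmgcs1, TCACNCCAC, chr13:119690204-119690233, plus strand: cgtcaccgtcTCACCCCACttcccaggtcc
Hmgcs1, CCAAT, chr13:119690294-119690323, plus strand: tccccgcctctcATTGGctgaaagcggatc
Mvd, CCAAT, chr8:122443432-122443461, minus strand: ccggccagcgggCCAATcatatggcagcgc
Idi1, CCAAT, chr13:8885576-8885605, plus strand: catggtccaaggtgccATTGGctggcgacc
Cyp51, CCAAT, chr5:4104709-4104738, minus strand: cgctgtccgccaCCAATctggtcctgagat
Dhcr7, CCAAT, chr7:143830153-143830182, plus strand: aatccacttccgATTGGtcgtctgtgacct

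CCAAT was found in 5 of the 7 windows, 1 for each of the 5 genes, and in 37.4% of all 32851 windows of that length. TCACNCCAC was found in 1 of the 7 windows, that of Hmgcs1, and in 1.24% of all windows. A match describes the letters in the window and says nothing of binding.

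A gene was tested where its brightest probe set averaged over 4.23 on the 8 arrays, the level of the middle probe set of the array. Mvd, Fdps, Fdft1, Cyp51 and Dhcr7 passed, and Hmgcs1, Idi1 and Sqle did not. Of the 12 probe sets 6 lay above that value, the sixth being a second one of Mvd.

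**Figure D1:**
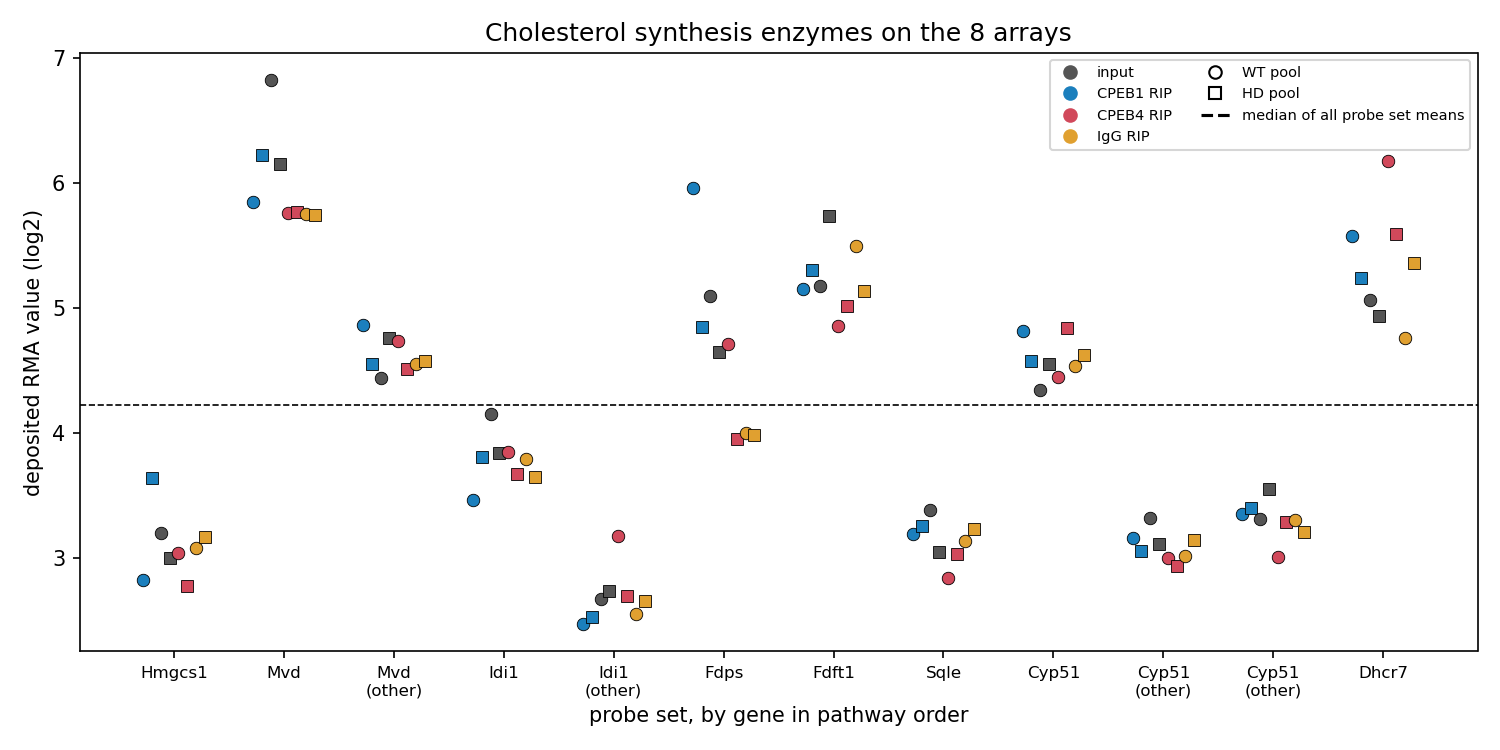
Deposited log2 RMA values of the 12 probe sets of the 8 enzymes (y axis) by gene in pathway order (x axis); colours mark the fraction, circles the WT pool and squares the HD pool, and the dashed line the median of all probe set means, 4.23. The blue Fdps points of CPEB1 reach 5.96 in WT and 4.85 in HD, the Mvd point of the WT input stands alone at 6.82, and Hmgcs1, Idi1 and Sqle lie under the line on all 8 arrays.

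Hmgcs1, the synthase that condenses acetoacetyl-CoA with acetyl-CoA, was at 3.20 in WT input, 3.0 in HD input, 2.83 and 3.64 with anti-CPEB1 (WT, then HD), 3.04 and 2.78 with anti-CPEB4, and 3.08 and 3.17 with IgG. All 8 values lay under 4.23, and the highest and the second lowest came from the CPEB1 arrays. Sqle, the squalene epoxidase, was at 3.39 and 3.05 in input, 3.19 and 3.25 with anti-CPEB1, 2.84 and 3.04 with anti-CPEB4, and 3.14 and 3.23 with IgG. Its 8 values span 0.55, the CPEB4 arrays holding the 2 lowest.

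Idi1, the isomerase of isopentenyl diphosphate, was at 4.15 and 3.84 in input, 3.46 and 3.81 with anti-CPEB1, 3.85 and 3.67 with anti-CPEB4, and 3.79 and 3.65 with IgG. The WT input was highest and the WT CPEB1 array lowest. Its other probe set ran from 2.47 to 3.17 and was highest with anti-CPEB4 in WT, so the probe sets did not share an order. For these 3 genes no test was made in the main model, since they lay below the level filter; in the model over every probe set their adjusted p was above 0.05 in all 6 comparisons of fractions, as was that of every other probe set of the 8 enzymes, with 0.199 the lowest.

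Fdps makes farnesyl diphosphate, the branch point to sterols, dolichol and prenylated proteins. It was at 5.10 in WT input and 4.65 in HD input, 5.96 and 4.85 with anti-CPEB1, 4.71 and 3.96 with anti-CPEB4, and 4.0 and 3.98 with IgG. Within each pool the CPEB1 array was the highest of the 4 fractions, and both IgG values and the HD CPEB4 value lay under 4.23. Its SD over the 8 arrays was 0.69, the widest of the 5 tested enzymes, against a median of 0.50 over the 11345 genes tested.

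Mvd, the decarboxylase that makes isopentenyl diphosphate, was at 6.82 and 6.15 in input, 5.85 and 6.22 with anti-CPEB1, 5.76 and 5.77 with anti-CPEB4, and 5.75 and 5.75 with IgG. The WT input stood alone at the top, and the 4 CPEB4 and IgG values lay between 5.75 and 5.77. The other Mvd probe set did not share this: it was at 4.44 and 4.76 in input, and its 8 values ran from 4.44, the WT input, to 4.86, the WT CPEB1 array.

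Dhcr7, the reductase of the last step to cholesterol, was at 5.07 and 4.94 in input, 5.58 and 5.24 with anti-CPEB1, 6.17 and 5.59 with anti-CPEB4, and 4.76 and 5.36 with IgG. The 2 CPEB4 arrays held the highest values, and both lay above both input and both IgG values. Fdft1, squalene synthase, was at 5.17 and 5.74 in input, 5.15 and 5.30 with anti-CPEB1, 4.85 and 5.02 with anti-CPEB4, and 5.50 and 5.13 with IgG. For Fdft1 the order was the opposite, with the CPEB4 arrays lowest and the HD input highest.

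Cyp51, the lanosterol demethylase, was at 4.34 and 4.55 in input, 4.82 and 4.58 with anti-CPEB1, 4.45 and 4.84 with anti-CPEB4, and 4.54 and 4.63 with IgG. Its SD of 0.17 was lower than that of all but 1.96% of the genes tested. Both CPEB1 values lay above both input values, and the CPEB4 and IgG values overlapped with each other and with those of CPEB1. The other 2 Cyp51 probe sets ran from 2.94 to 3.32 and from 3.01 to 3.55.

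RNA that came down with anti-CPEB4 beyond IgG was the comparison with the most calls over all genes. By limma at an adjusted p under 0.05, none of the 5 tested enzymes was higher and none lower, where 2.33% of the genes tested were higher and 0.0441% lower. At an unadjusted p under 0.05 the counts were also 0 of 5, against 22.9%. With cyclic loess, median centring or no replicate block the unadjusted count was 1 of 5, where 2377 to 2641 of 11345 genes were under 0.05. The error behind the p-values of the main model is 1 per gene, pooled over all 4 fractions and moderated by a prior. The block takes out the mean difference between the pools, so this error measures how far the 2 pools disagree on the differences between fractions. Since the pools are the 2 genotypes, it also holds any genotype effect on those differences. Dhcr7 had the largest difference, 0.82 ± 0.36 (SE; 1.42 in WT and 0.23 in HD), with an adjusted p of 0.244 by limma. Fdft1 lay at -0.38 ± 0.31, below IgG in both pools, with an adjusted p of 0.453 by limma. The other 3 lay between 0.01 for Mvd and 0.34 for Fdps.

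The intervals show what 2 pools can resolve. For Dhcr7 the 95% interval ran from -0.08 to 1.73 on the log2 scale, and for Cyp51 from -0.63 to 0.76. The median of the 5 was 0.06, beside -0.06 over all genes tested.

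**Figure D2:**
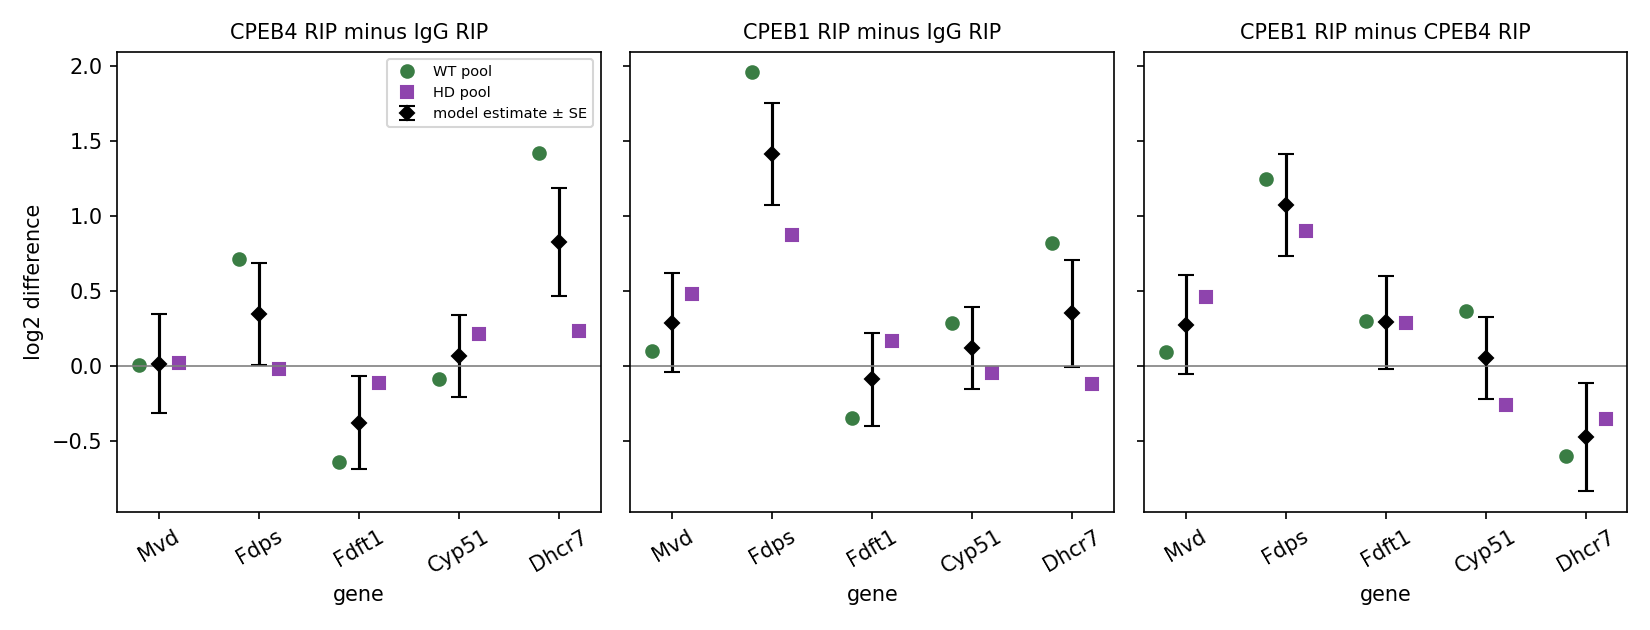
Log2 difference between fractions (y axis) for the 5 tested enzymes (x axis), in panels for CPEB4 RIP minus IgG RIP, CPEB1 RIP minus IgG RIP and CPEB1 RIP minus CPEB4 RIP; green circles are the WT pool, purple squares the HD pool, and black diamonds the limma estimate ± SE. Fdps is above 0 in both pools in the panels with CPEB1, at 1.96 and 0.87 over IgG, while none of the 5 had an adjusted p under 0.05.

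With anti-CPEB1 over IgG no enzyme was called at an adjusted p under 0.05, and neither was any gene (0% of those tested, higher or lower, by limma). At an unadjusted p under 0.05 there was 1 of 5, against 7.37% of all genes. That was Fdps, with a difference of 1.41 ± 0.34 (1.96 in WT and 0.87 in HD), an unadjusted p of 0.00777 and an adjusted p of 0.357 by limma. The estimate exceeded that of 93.6% of the genes tested, and its 95% interval ran from 0.56 to 2.27. Both IgG values lay under the level filter, so low signal limits how well the size of this difference is known. The IgG arrays are shared with the CPEB4 comparison, where Fdps was at 0.71 in WT and -0.02 in HD. The other 4 enzymes lay between -0.09 for Fdft1 and 0.35 for Dhcr7.

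Between the antibodies, with no IgG array in the contrast, no enzyme was called; over all genes 0% were higher with anti-CPEB1 and 0.141% lower. Fdps was higher with anti-CPEB1 in both pools, by 1.24 in WT and 0.90 in HD, an estimate of 1.07 ± 0.34 with an unadjusted p of 0.0234 and an adjusted p of 0.272 by limma. It was the 1 of 5 at an unadjusted p under 0.05, against 15.3% of all genes, and its estimate exceeded that of 97.5% of the genes tested. This count moved with the processing. With cyclic loess and with no replicate block it was 0 of 5, where 1636 and 1848 of 11345 genes were under 0.05 by limma. Dhcr7 went the other way, at -0.60 in WT and -0.35 in HD, with an adjusted p of 0.480 by limma. Fdps and Dhcr7 thus lay on opposite sides of 0 in each pool, and neither passed the test.

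Against input, no enzyme was called with anti-CPEB4 (1.34% of all genes higher, 0.0176% lower), with anti-CPEB1 (0.0176% higher, 0% lower) or with IgG (0.0176% higher, 0.00881% lower). At an unadjusted p under 0.05 there were 0 of 5 with anti-CPEB4, against 26.2% of all genes, 0 of 5 with anti-CPEB1, against 8.07%, and 1 of 5 with IgG, against 9.75%. These unadjusted counts move with the processing. With cyclic loess, median centring, no replicate block or trended robust eBayes 1 of 5 was under 0.05 with anti-CPEB4, where 2553 to 3168 of 11345 genes were. For IgG over input, cyclic loess, median centring and no replicate block each gave 0 of 5, where 1100 to 1176 genes were under 0.05. With anti-CPEB4 the estimates were 0.88 ± 0.36 for Dhcr7, positive in both pools with an adjusted p of 0.196 by limma, and -0.72 ± 0.33 for Mvd, with an adjusted p of 0.225 by limma. For IgG over input Mvd was at -0.74 ± 0.33. The second Mvd probe set did not share this, at 0.03 for anti-CPEB4 and -0.03 for IgG.

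Fdps in IgG lay below input by -0.88 ± 0.34 (-1.10 in WT and -0.67 in HD), with an unadjusted p of 0.0459 and an adjusted p of 0.506 by limma, and was the 1 of 5. With anti-CPEB1, Fdps lay above input by 0.53 ± 0.34 (0.86 in WT and 0.21 in HD). The difference of Fdps between anti-CPEB1 and IgG was therefore the sum of a CPEB1 value above the lysate and an IgG value below it, and neither part passed the test. Marker genes also differed between the IgG arrays: the mean of 9 medium spiny neuron markers was 6.97 on the HD IgG array against 8.63 on the WT one, and that of 9 oligodendrocyte markers 5.91 against 7.01. Of the latter Cnp, at -4.50, and Mobp, at -3.95, differed most, while Mag was at 0.46. Their part in the Fdps difference, for which the 2 IgG values were 4.0 and 3.98, was not tested.

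Between genotypes each fraction had 1 array of each pool, so no test was made and a difference has no replicate check. In input, 6 of the 8 enzymes lay lower in HD than in WT, where 58.1% of all 17097 genes did. None of the 8 differed by 2-fold, a log2 difference of 1, where 11.1% of all genes did. Mvd had the lowest value, a log2 difference of -0.67 (6.82 to 6.15). Fdps was at -0.45 (5.10 to 4.65), Sqle at -0.34, Idi1 at -0.31, Hmgcs1 at -0.20 and Dhcr7 at -0.13. Fdft1 was higher in HD, from 5.17 to 5.74, by 0.57, and Cyp51 by 0.21.

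The median of the 8 was -0.25, beside -0.07 over all genes. For the 5 enzymes above the level filter it was -0.13, beside -0.08 over the genes tested. The 4 other probe sets did not all share the sign of their gene: the second Mvd probe set was at 0.32, the second of Idi1 at 0.07, and those of Cyp51 at -0.21 and 0.24. For Mvd, Idi1 and Cyp51 the direction in input thus depends on the probe set.

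**Figure D3:**
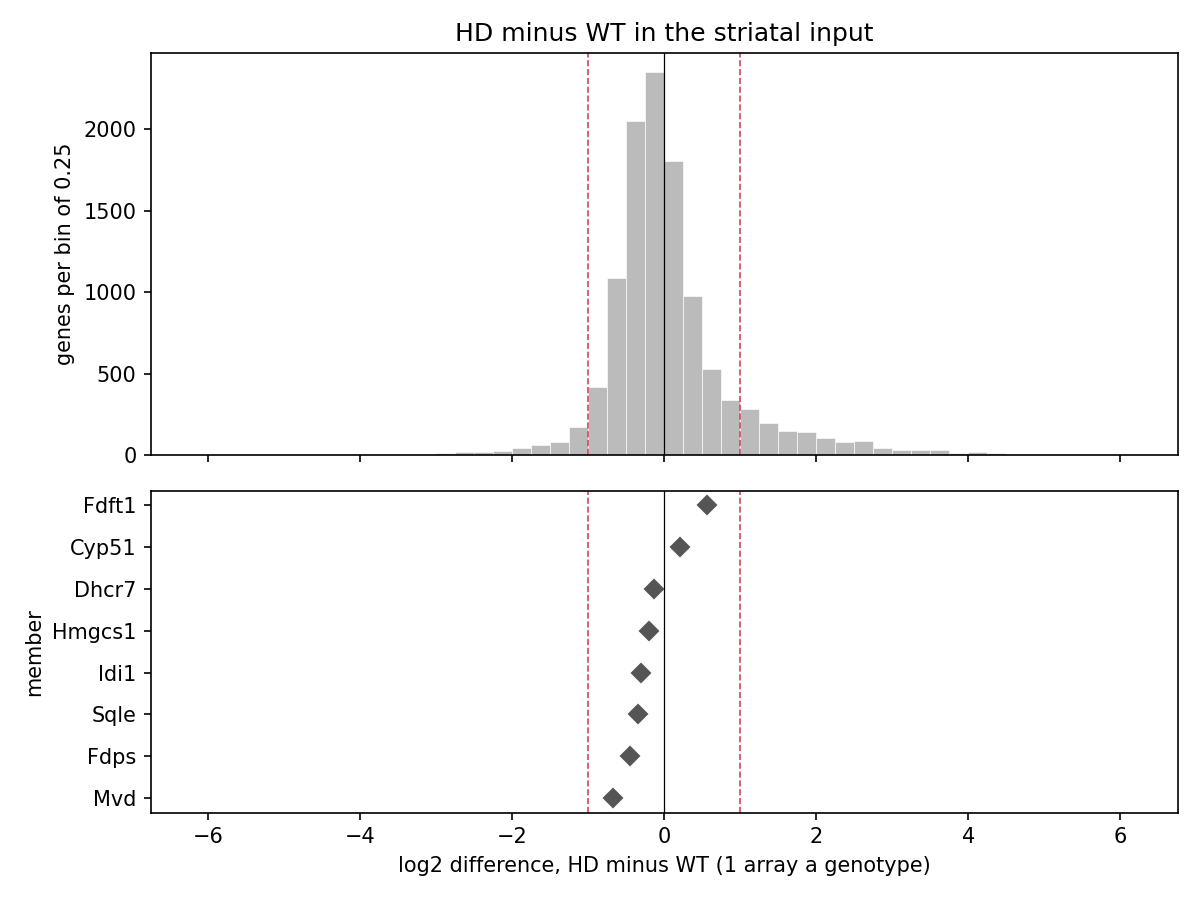
HD minus WT in the striatal input as a log2 difference (x axis), 1 array a genotype: the upper panel counts the 11345 genes tested in bins of 0.25 (y axis, genes per bin), and the lower panel gives each of the 8 enzymes as a diamond. All 8 lie between the dashed lines at 1 and -1, from -0.67 for Mvd to 0.57 for Fdft1.

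Cell type markers differed between the same 2 input arrays. The mean of 9 medium spiny neuron markers on the array was 8.04 in WT and 7.73 in HD, that of 9 oligodendrocyte markers 6.92 and 7.01, and that of 8 astrocyte markers 6.72 and 7.12. Past 2-fold in HD were 1 higher and 2 lower of 8 tested medium spiny neuron markers, 2 higher and 1 lower of 7 for astrocytes, 1 higher and 1 lower of 8 for oligodendrocytes, and 1 higher of 5 for choroid plexus and ependyma. Of the neuron markers Pdyn differed by -1.89 and Penk by -1.34, but Rgs9 by 1.09. Gfap was at 2.48 and Gja1 at 2.28, but the astrocyte marker Aldh1l1 at -1.16. For oligodendrocytes Mobp was at -1.50 and Mal at 1.01. Ttr was at 3.89, while the other markers of choroid plexus and ependyma lay between -0.44 and 0.22. In pooled tissue, fewer cells of a type and less RNA per cell cannot be told apart, and the part of these markers in the enzymes' differences was not tested.

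In the precipitates the split of directions was near that of the whole array, where 41.9% of all genes were lower in HD with anti-CPEB1, 42.8% with anti-CPEB4 and 42.6% with IgG. With anti-CPEB1, 3 of the 8 were lower in HD and 5 higher, and Fdps was the 1 past 2-fold, at -1.11 (5.96 to 4.85), where 14.8% of all genes were; Hmgcs1 was at 0.81. With anti-CPEB4, 4 were lower and 4 higher and none was past 2-fold, where 12.5% of all genes were; Fdps was at -0.76 and Dhcr7 at -0.58. With IgG the split was again 4 and 4 with none past 2-fold, where 10.9% of all genes were; Dhcr7 was at 0.60. Fdps was lower in HD in all 4 fractions, by only -0.02 in IgG. Fdft1 was higher in HD in input, CPEB1 and CPEB4 and lower in IgG, at -0.36.

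The enzymes did not follow one profile over the arrays. Pearson's r between pairs of the 5 tested ran from -0.85 for Fdft1 and Dhcr7 to 0.38 for Mvd and Fdps; the 8 points share arrays and are a description. The genes most like the mean profile of the 5 were Zfp687 (r = 0.956), Pdia6 (0.943), Rab40c (0.940), Fkbp8 (0.938) and Rbm4 (0.936), over 8 arrays and among 10606 genes searched.

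The other genes of the pathway were read from 3 lists. Of 17 other enzymes 12 were on the array under a symbol of their own and 8 were tested, of 14 genes of sterol sensing and regulation 11 and 8, and of 14 genes of cholesterol transport and turnover 11 and 10. None of the genes tested on the 3 lists was called in any of the 6 comparisons of fractions, higher or lower. For anti-CPEB4 over IgG the medians were 0.08, 1.19 and 0.06, beside -0.06 over all genes tested, and 1 of 8, 4 of 8 and 1 of 10 had an unadjusted p under 0.05, beside 22.9%.

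Of the listed genes Acat1 and Acat2, only Acat1 was on the array under a symbol of its own. Its part in sterol synthesis was not tested. Acat1, a thiolase, was at 7.86 in WT and 6.79 in HD with anti-CPEB4 and at 6.12 and 5.34 with IgG. The estimate was 1.59 ± 0.45 over IgG, with an adjusted p of 0.144 by limma, and both its other probe sets were also above IgG in both pools. Against anti-CPEB4, Acat1 with anti-CPEB1 was at -1.93 ± 0.45 (adjusted p = 0.175 by limma), so within each pool its CPEB4 array was the highest. Sc5d, a desaturase of late sterol synthesis, was at 6.58 with anti-CPEB4 and 3.90 with IgG in WT, but at 4.54 and 4.17 in HD. Its other probe sets were at 0.93 in WT and -4.72 in HD, and at 1.39 and -0.04, for anti-CPEB4 over IgG.

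Srebf2 was at 7.05 and 7.23 in input, 8.21 and 7.17 with anti-CPEB1, 8.41 and 7.35 with anti-CPEB4, and 6.15 and 5.98 with IgG. Both antibodies lay above both IgG values. The estimate was 1.82 ± 0.41 for anti-CPEB4 over IgG, with an adjusted p of 0.096 by limma, and 1.62 ± 0.41 for anti-CPEB1 over IgG, with 0.376. Its second probe set was above IgG by 3.68 and 3.72 with anti-CPEB4, and by 3.60 and -0.06 with anti-CPEB1 (WT, then HD).

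Of the NF-Y subunits Nfya was at 0.57 ± 0.48 for anti-CPEB4 over IgG, with an adjusted p of 0.467 by limma. It was at 1.30 in WT and -0.16 in HD. Its other probe sets were at -0.28 and 0.96 in WT and at 0.15 and -0.70 in HD. Nfyb and Nfyc were at 2.37 ± 0.92 and 2.20 ± 0.68 for anti-CPEB4 over IgG, with adjusted p-values of 0.215 and 0.159 by limma. Both were further above IgG in WT, by 3.75 and 3.17, than in HD, by 0.98 and 1.23, a difference that was not tested. The second Nfyb probe set had the opposite order, at 4.75 in WT and 6.37 in HD. Insig1, which holds the SREBP complex in the endoplasmic reticulum, was at -0.81 ± 0.59 with anti-CPEB1 over IgG (-1.53 in WT and -0.09 in HD), with an adjusted p of 0.858 by limma, and ran from -1.54 to -0.08 with 1 array left out.

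Among transport genes Lrp1, a receptor that takes up apolipoprotein E, was at 9.54 and 9.52 with anti-CPEB4, 7.80 and 7.38 with anti-CPEB1, 6.97 and 9.04 in input, and 5.53 and 5.43 with IgG. For anti-CPEB4 over IgG it was at 4.05 ± 0.65, with an adjusted p of 0.052 by limma, just outside the threshold. A second Lrp1 probe set went the other way, at -0.96 in WT and -0.54 in HD. Npc2, which moves cholesterol out of lysosomes, was lower with anti-CPEB1 than with anti-CPEB4 in both pools, at -1.50 ± 0.39, with an adjusted p of 0.210 by limma. Its other probe sets were at 0.08 in WT and 1.06 in HD, and at -0.34 and -0.07, so this direction depends on the probe set. Abcg1, a sterol exporter, was at 2.97 in WT and -0.12 in HD for anti-CPEB4 over IgG, while its other probe set was at 4.60 and 3.67.

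**Figure D4:**
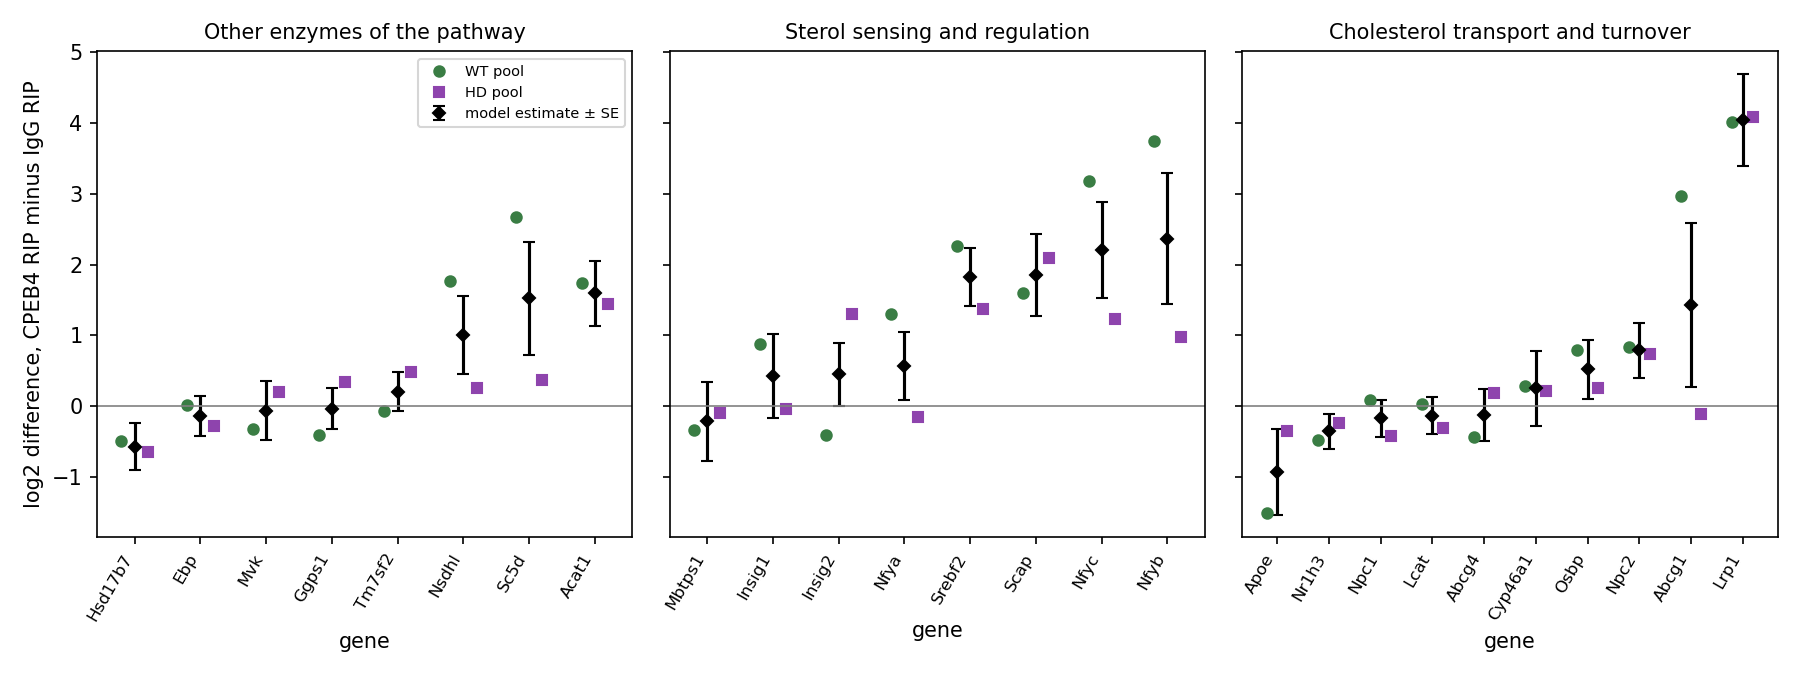
Log2 difference of CPEB4 RIP minus IgG RIP (y axis) for the tested genes of 3 pathway lists (x axis, 1 panel a list); green circles are the WT pool, purple squares the HD pool, and black diamonds the limma estimate ± SE. Lrp1 stands highest at 4.05, Srebf2 is at 1.82, and no gene in the panels had an adjusted p under 0.05.

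In the input, 0 of 8 other enzymes tested were past 2-fold between genotypes by the probe set that represents the gene, the furthest being Nsdhl and Sc5d, both at -0.76, where 11.3% of the genes tested were past it higher in HD and 4.43% lower. Of the regulators 3 of 8 were higher in HD, Mbtps1 at 1.73, Nfyc at 1.48 and Nfya at 1.33. In the IgG control HD minus WT was -0.35 for Mbtps1, 1.84 for Nfyc and 1.07 for Nfya. With anti-CPEB1 and anti-CPEB4 these genes lay between -0.62 and 0.21. Of the transport genes Abcg1 was higher in HD input by 2.09, Lrp1 by 2.07 and Apoe, the main lipoprotein component made by astrocytes, by 1.99. Osbp was lower, at -1.13. With anti-CPEB1, anti-CPEB4 and IgG in turn, HD minus WT was -0.22, -3.10 and -0.01 for Abcg1 and -0.42, -0.02 and -0.10 for Lrp1. It was -0.23, 1.02 and -0.14 for Apoe and -1.48, -0.54 and 0 for Osbp. The WT input value of Apoe, 6.59, was the lowest of its 8. Probe sets of a gene disagreed in the input too: the others of Sc5d were at -1.96 and 0.04. The others of Acat1 were at 1.06 and -0.21, beside 0.41 for the representing one. The second of Nfyb was at 3.41 beside 0.86. The other 2 of Mbtps1 were at -0.47 and 0.96, and those of Nfya at 0.22 and 0.64. The other of Abcg1 was at 0.68 and the other of Lrp1 at -0.10. Of 7 tested astrocyte markers 2 were past 2-fold higher in HD input, among them Gfap at 2.48, and 1 was lower, Aldh1l1 at -1.16; their median was -0.08, and the part of astrocyte RNA was not tested.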

How the data were processed

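The authors deposited log2 values, 1 per probe set and array, summarised with RMA according to the submitters' processing notes. The RMA version and the set of arrays normalized at once are not given there. Values were used without further scaling, and no sample column was left over. Of 45101 probe sets 28898 have 1 symbol in the platform annotation, 551 several and 15652 none; 28689 matched the RefSeq gene table (GRCm38.p6). Probe sets without a single symbol were not used, so further probe sets of these genes may be among them.

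Each gene was represented by its probe set with the highest mean, and 11345 genes with a mean above 4.23 were tested with lmFit and eBayes of limma 3.58.1 under R 4.3.3 (two-sided, Benjamini-Hochberg over all genes tested, threshold 0.05). All 8 arrays entered a model of fraction with genotype pool as the block, with 3 residual degrees of freedom and 2.29 from the prior. Nothing in the labels says that pools or fractions were repeated, so p-values measure only how far these pools disagree on the differences between fractions. The number of arrays limits the precision. HD minus WT was counted at a log2 difference of 1. The model code was run on simulated data with equal, independent noise for every gene, no pool effect and large differences added with anti-CPEB4. That setting is unlike these data, so it does not show power or error rates for the enzymes. Named genes were the 8 enzymes, genes of the lists and the 5 most alike genes. Each list gave up to 4 genes a comparison past the test or past 2-fold, otherwise the 2 largest. Tm7sf2, Ebp, Scap, Cyp46a1, Insig2 and Abcg4, for example, came from this rule but are not described above. Values of Srebf2 and Nfya with anti-CPEB4 were added after they were seen. The enzymes, lists and tests were chosen with earlier results of these data known. Alternatives were other level filters, all or averaged probe sets, cyclic loess, quantile normalization or median centring, no block, only the fractions compared, trended robust eBayes, leaving out each array, and folds of 1.5 and 3.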

Additional observations from a re-analysis of the deposited data

Results flagged for a closer look

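In 9 of 30 pairs of a tested enzyme and a comparison of fractions, the WT pool and the HD pool lay on opposite sides of 0. There was 1 array a fraction and pool, so the difference between the pools was not tested. Cyp51 had 3 of these pairs: for anti-CPEB4 over IgG it was at -0.086 in WT and 0.21 in HD, for anti-CPEB1 over IgG at 0.28 and -0.050, and for anti-CPEB1 against anti-CPEB4 at 0.37 and -0.26. Dhcr7 was at 0.82 in WT and -0.12 in HD for anti-CPEB1 over IgG, and at -0.31 and 0.42 for IgG over input. Fdft1 was at -0.35 and 0.17 for anti-CPEB1 over IgG, and at 0.32 and -0.61 for IgG over input. Fdps was at 0.71 and -0.024 for anti-CPEB4 over IgG, and Mvd at -0.97 and 0.072 for anti-CPEB1 over input.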

How the results depend on the processing

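Of the 18 alternatives, those that keep every array called no enzyme in any of the 6 comparisons of fractions. Among them the smallest adjusted p of an enzyme was 0.145 by limma, for anti-CPEB4 over input with cyclic loess. Fits with 1 array left out leave 1 array in a fraction, so their calls are not read. The 75th percentile filter tested only 2 of the enzymes. With only the compared fractions in the model, no gene was called in any comparison. A count of 0 enzymes is no sign of stability wherever no gene was called. Calls over all genes ran from 0 to 552 for anti-CPEB4 over IgG, 0 to 210 between the antibodies, 0 to 501 for anti-CPEB4 over input, 0 to 3 for anti-CPEB1 over input, 0 to 9 for IgG over input, and stayed at 0 for anti-CPEB1 over IgG, so a count of 0 there is no sign of stability. Fdps kept its sign with 1 array left out, at 1.04 to 1.79 for anti-CPEB1 over IgG and 0.72 to 1.42 between the antibodies. Both pools were already above 0 in these comparisons. Leaving out an array of a compared fraction leaves mainly the other pool, so the kept sign adds little to the pool values.

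Some signs turned, and the cause was not tested. Between the antibodies Cyp51 turned to -0.23 with cyclic loess, -0.027 with quantile normalization and -0.066 with median centring, and Fdft1 to -0.014 with cyclic loess; for anti-CPEB4 over IgG Mvd turned to -0.32 with quantile normalization. With 1 array left out, Cyp51 ran from -0.12 to 0.35 for anti-CPEB1 over IgG, -0.18 to 0.29 between the antibodies and -0.12 to 0.25 for anti-CPEB4 over IgG; Mvd from -0.011 to 0.59, -0.024 to 0.57 and -0.042 to 0.069 in the same order. Fdft1 ran from -0.42 to 0.24 for anti-CPEB1 over IgG, -0.52 to 0.059 for anti-CPEB1 over input and -0.47 to 0.19 for IgG over input. Dhcr7 ran from -0.13 to 0.82 for anti-CPEB1 over IgG and -0.42 to 0.53 for IgG over input. For anti-CPEB4 over IgG Fdps ran from -0.032 to 0.72, and Abcg1 from -0.43, without the WT CPEB4 array, to 3.29.

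Lrp1 for anti-CPEB4 over IgG passed the test with cyclic loess (3.37, adjusted p = 0.043 by limma) and with no replicate block (4.05, adjusted p = 0.033 by limma). Between genotypes, at 1.5-fold 1 enzyme was past the threshold in input, 2 with anti-CPEB1, 1 with anti-CPEB4 and 1 with IgG (23.5%, 28.4%, 24.8% and 19.8% of all genes), and at 3-fold 0 with anti-CPEB1. With the mean of probe sets, HD minus WT in input was -0.17 for Mvd, 0.99 for Lrp1, 1.38 for Abcg1, 0.74 for Mbtps1 and 0.73 for Nfya.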
